A study of Mus musculus with 28 samples.

Results

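A group of 10 genes of the bone morphogenetic protein (BMP) pathway was followed in mouse P19 cells as they became neural: the ligands Bmp2, Bmp4 and Bmp7, the secreted antagonist Nog, the inhibitory Smads Smad6 and Smad7, and the target genes Id1, Id2, Id3 and Id4. They are a list of gene names with no threshold on a measured value, and all 10 were matched to a row of the RNA table, which holds 55385 genes. P19 is an established line of pluripotent mouse embryonal carcinoma cells. Undifferentiated cells were the day 0 group. Cells given 1 µM retinoic acid for 4 days were the day 4 group, labelled neural stem or progenitor cells, and cells replated on poly-D-lysine in DMEM/F12 with B27 for 4 more days were the day 8 group, labelled neurons. In the day 2 arm, cells had 1 µL of DMSO added on day 1 of retinoic acid, or the same volume of MS-275 (stock 10 mM), which inhibits class I histone deacetylases, and were collected on day 2. RNA was sequenced in 2 libraries for each of these 5 groups, and the 28 samples of the series also hold ChIP-seq for 3 histone marks, ATAC-seq and inputs.

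BMP ligands bind paired type I and type II receptors, which phosphorylate Smad1, Smad5 and Smad9. These join Smad4, enter the nucleus and switch on target genes, of which the Id genes are the best known. Id proteins lack a DNA-binding region and hold back basic helix-loop-helix (bHLH) factors, among them those that drive neurogenesis. Noggin, the product of Nog, binds BMP ligands outside the cell, and Smad6 and Smad7 block the pathway inside it and are themselves targets of it. In the early embryo BMP signals oppose neural fate, while later in the neural tube they pattern its dorsal side.

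The 10 RNA libraries held 18115926 to 19586374 estimated counts each. Replicates of a group differed by more than counting noise in all 5 groups, with a chi-square per degree of freedom of 2.82 to 6.28. Of the marker lists, 6 pluripotency genes summed to 1875 to 1923 CPM (counts scaled to library size) at day 0, 45.3 to 47.0 with DMSO, 101 to 106 with MS-275, 3.04 to 4.61 at day 4 and 52.4 to 61.0 at day 8, with Zfp42 at 0 counts in every group but day 0 and Dppa4 at 0 at day 4. From day 4 to day 8, the step in which 8 of the 10 BMP genes fell, the 5 pluripotency genes that could be tested were all called higher, Pou5f1 from 2.65 to 41.7 CPM in the mean (15.7-fold, edgeR adjusted p = 2.30e-13). The 6 neuron genes summed to 129 to 133 CPM at day 0 and 2928 to 3133 at day 8. The neuron sum already stood at 2313 to 2407 CPM at day 4, in cells labelled progenitors. The 6 neural progenitor genes summed to 284 to 291 CPM at day 0, 1180 to 1216 at day 4 and 1339 to 1359 at day 8. That sum was thus also high at day 4, and highest in cells labelled neurons. Its genes did not move as one. From day 4 to day 8, 3 of the 6 were called higher and 2 lower, beside 21.7% and 19.8% of all genes. From day 2 with DMSO to day 4, 3 were called higher and 3 lower, beside 30.6% of all genes in either direction. The 5 astrocyte genes summed to 276 to 293 CPM at day 0, 34.8 to 40.5 at day 4 and 117 to 123 at day 8. The 6 fibroblast and mesenchyme genes summed to 35.7 to 36.9 CPM with DMSO, 532 to 578 with MS-275, 747 to 850 at day 4 and 1180 to 1229 at day 8, and 0 of the 6 was at 0 counts in any group. Cultures were measured in bulk, so fewer cells of one kind and less RNA per cell cannot be told apart, and the part of these other cell types in the results on the 10 genes was not tested.

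Most of the 10 genes went from low to high levels within the first 2 days. Against day 0, 8 of the 10 were called higher at day 2 with DMSO and 1, Smad7, lower, at an adjusted p under 0.05 in edgeR's quasi-likelihood test. Over all 17789 genes tested in this comparison 64.6% were called, 32.4% higher and 32.2% lower, so the number of calls alone says little. The median log2 fold change of the 10 was 3.80, and that of all tested genes 0.01. Rises and falls offset each other in the median of all genes. Here and below it therefore stands for direction, not for the size of changes over all genes. Day 0 cells received neither retinoic acid nor DMSO, and the effects of the 2 cannot be told apart here. From day 2 with DMSO to day 4, 5 rose and 3 fell (61.2% of all genes were called, 30.6% in either direction), with a median of 0.23. The labels name no DMSO for day 4 cells, so time in retinoic acid and DMSO cannot be told apart in that step either. From day 4 to day 8, 1 rose and 8 fell (41.5% of all genes called, 21.7% higher and 19.8% lower), with a median of -0.85 beside 0 for all genes. With MS-275 against DMSO at day 2, 2 rose and 5 fell (63.3% of all genes called, 31.9% higher and 31.4% lower), with a median of -0.29 beside 0.01. Day 4 against day 0 spans the first pair of steps and shares its libraries with them: 9 rose, with Bmp4 the exception (72.3% of all genes called, 36.2% higher).

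**Figure D1:**
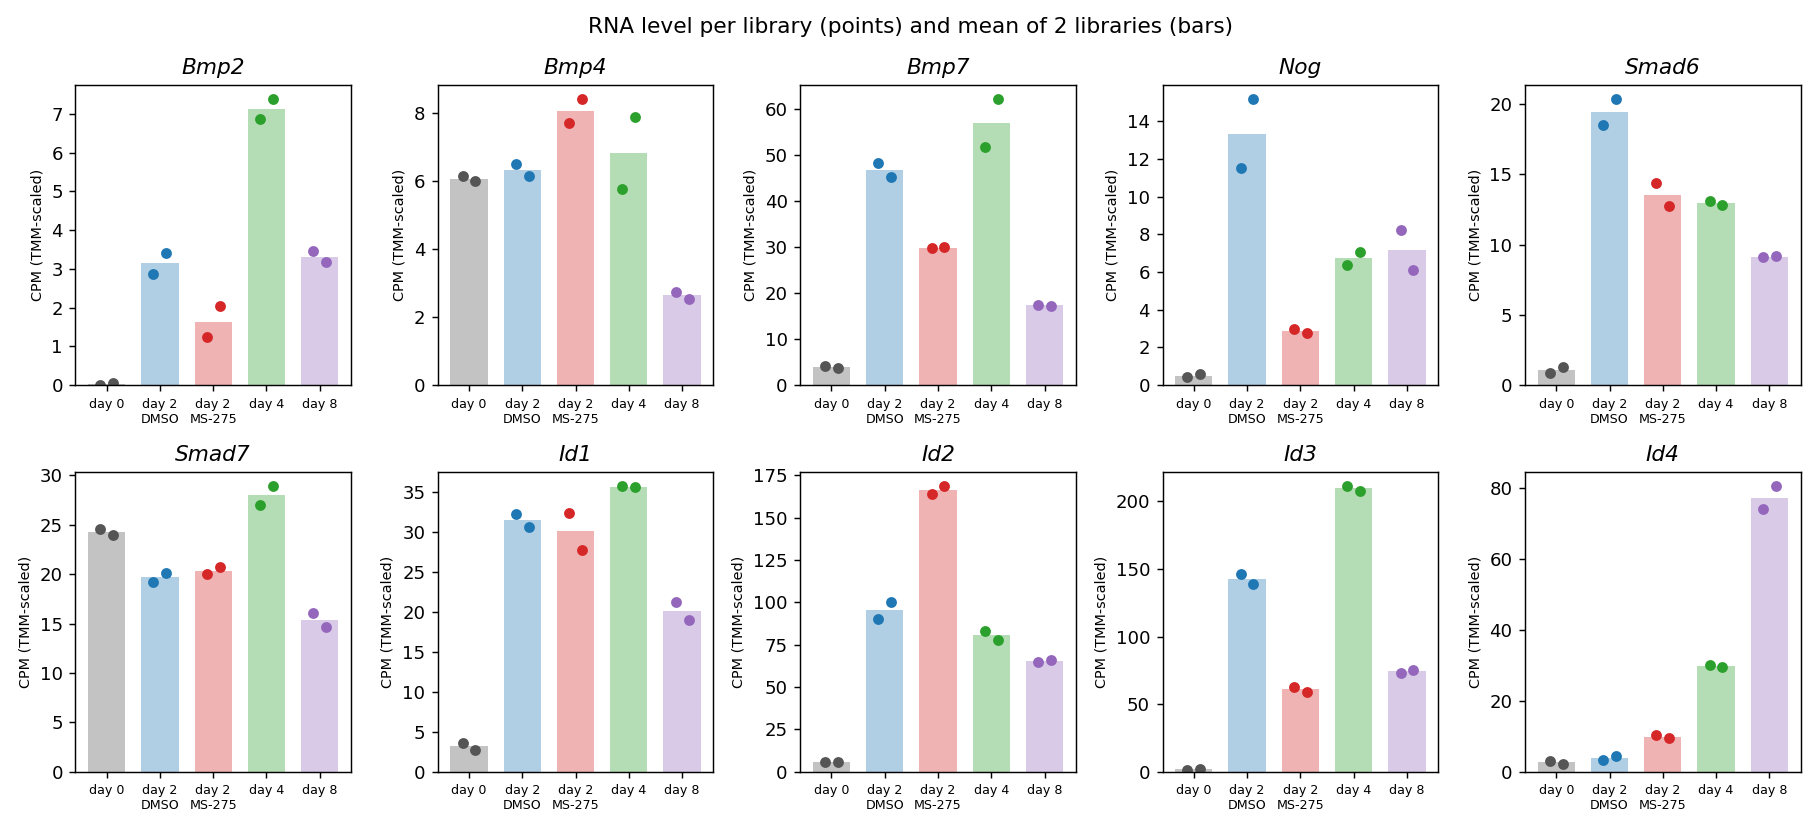
RNA level of the 10 genes in TMM-scaled CPM (y axis, linear from 0, its own range for each gene) in the 5 groups (x axis); points are libraries and bars the mean of 2. Bmp2, Bmp7, Id1, Id2, Id3, Smad6 and Nog are lowest at day 0, Id4 climbs to its highest level at day 8, and Bmp4 and Smad7 are lowest at day 8.

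Bmp2 (ENSMUSG00000027358.6, chr2:133552159-133562896, GRCm38), a ligand that acts on heart, bone and dorsal neural tissue, had 0 and 1 counts in the day 0 libraries, which is 0 and 0.0560 CPM. It stood at 2.88 and 3.41 CPM at day 2 with DMSO, 1.24 and 2.04 with MS-275, 6.87 and 7.38 at day 4, and 3.46 and 3.18 at day 8. The level was thus near the floor of the assay before retinoic acid, highest at day 4, and alike at day 2 with DMSO and at day 8, whose libraries overlapped. Against the single day 0 count, the ratio of summed counts per library size was 116 at day 2 (95% interval 20.3 to 4604, counting error only) and 263 at day 4 (46.7 to 10412). From day 2 with DMSO to day 4 Bmp2 rose 2.27-fold (log2 1.18 ± 0.27 SE, edgeR adjusted p = 0.00103), and from day 4 to day 8 it fell 2.14-fold (± 0.26 SE on the log2 scale, edgeR adjusted p = 0.00295). With MS-275 it was 1.91-fold lower than with DMSO (log2 -0.94 ± 0.30 SE, edgeR adjusted p = 0.0121). That last call was lost without DMSO replicate 2 (log2 -0.82, adjusted p = 0.0707 in edgeR) or without MS-275 replicate 1 (-0.62, adjusted p = 0.130 in edgeR).

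Bmp7 (ENSMUSG00000008999.7, chr2:172868012-172940321), a ligand of kidney, eye and neural development that can pair with BMP2 or BMP4, followed the same outline with more counts behind it. Its levels were 4.20 and 3.70 CPM at day 0, 48.4 and 45.3 at day 2 with DMSO, 29.7 and 29.9 with MS-275, 51.8 and 62.2 at day 4, and 17.4 and 17.2 at day 8. No pair of neighbouring groups in this order overlapped. It rose 11.8-fold in the first 2 days (log2 3.56 ± 0.12 SE, edgeR adjusted p = 1.85e-13) and fell 3.29-fold from day 4 to day 8 (log2 -1.72 ± 0.10 SE, edgeR adjusted p = 4.63e-10). With MS-275 it was 1.57-fold lower (log2 -0.65 ± 0.09 SE, edgeR adjusted p = 9.73e-06). The small rise from day 2 with DMSO to day 4 (log2 0.28 ± 0.09 SE, edgeR adjusted p = 0.0108) was not called without DMSO replicate 2 (0.23) or day 4 replicate 2 (0.16). The predicted long noncoding gene Gm40010 overlaps Bmp7 or lies within 1 kb of it. The strand used in counting is not given, so reads of the 2 may be shared, which was not checked.

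Bmp4 (ENSMUSG00000021835.15, chr14:46383525-46390669), the ligand that holds ectoderm to epidermal fate in the embryo, was the ligand of the 3 whose level changed least from day 0 to day 2. Its libraries read 6.14 and 5.996 CPM at day 0, 6.49 and 6.14 at day 2 with DMSO, 7.72 and 8.41 with MS-275, 5.77 and 7.88 at day 4, and 2.74 and 2.54 at day 8. Day 4 spanned a wide range that overlapped MS-275, DMSO and day 0, while the MS-275 libraries lay above the DMSO libraries and day 8 lay below all other groups. It fell 2.58-fold from day 4 to day 8 (log2 -1.37 ± 0.20 SE, edgeR adjusted p = 4.52e-05). No change was called from day 0 to day 2 with DMSO (log2 0.057 ± 0.19 SE, edgeR adjusted p = 0.812) or from there to day 4 (0.11 ± 0.19 SE, edgeR adjusted p = 0.633). With MS-275 the difference was 0.35 ± 0.18 SE (edgeR adjusted p = 0.104), and it was called when libraries were scaled by their totals only (0.49, adjusted p = 0.0280) or when the 4 libraries were fitted alone (0.38, adjusted p = 0.0430). The long noncoding genes Gm15217 and Gm15222 overlap or adjoin Bmp4.

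Nog (ENSMUSG00000048616.4, chr11:89300638-89302559) encodes noggin, which binds BMP4 and related ligands and keeps them from their receptors. It read 0.420 and 0.560 CPM at day 0, 11.5 and 15.2 at day 2 with DMSO, 2.97 and 2.79 with MS-275, 6.398 and 7.05 at day 4, and 8.21 and 6.09 at day 8. Day 2 with DMSO was the highest group, and days 4 and 8 overlapped. The rise to day 2 was 26.9-fold (log2 4.75 ± 0.28 SE, edgeR adjusted p = 2.54e-10) and the fall to day 4 was 1.98-fold (log2 -0.99 ± 0.19 SE, edgeR adjusted p = 0.000291). Of the 10 genes, Nog had the largest fitted change with MS-275, 4.62-fold lower (log2 -2.21 ± 0.21 SE, edgeR adjusted p = 1.19e-07). From day 4 to day 8 the difference was 0.090 ± 0.20 SE on the log2 scale (edgeR adjusted p = 0.759).

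Smad6 (ENSMUSG00000036867.7, chr9:63953076-64022085), which blocks BMP receptor signalling in preference to that of activin and TGF-β, read 0.840 and 1.29 CPM at day 0. It reached 18.5 and 20.3 CPM at day 2 with DMSO, and read 14.4 and 12.7 with MS-275, 13.1 and 12.8 at day 4, and 9.09 and 9.16 at day 8. After the first step, 18.2-fold up (log2 4.19 ± 0.18 SE, edgeR adjusted p = 5.11e-12), the MS-275, day 4 and day 8 libraries all lay below those of day 2 with DMSO. The fall to day 4 was smaller (log2 -0.58 ± 0.13 SE, edgeR adjusted p = 0.000774), that from day 4 to day 8 was 1.42-fold (-0.51 ± 0.14 SE, edgeR adjusted p = 0.00622), and MS-275 lay 1.43-fold below DMSO (-0.52 ± 0.13 SE, edgeR adjusted p = 0.00176).

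Smad7 (ENSMUSG00000025880.11, chr18:75367365-75395935), an inhibitor of both the BMP and the TGF-β branches, had the highest level of the 10 genes before retinoic acid. It read 24.6 and 24.0 CPM at day 0, 19.2 and 20.1 at day 2 with DMSO, 19.99 and 20.7 with MS-275, 27.0 and 28.9 at day 4, and 16.1 and 14.7 at day 8. Its whole range was narrow beside that of Smad6, and the day 2 groups overlapped. It rose 1.42-fold from day 2 with DMSO to day 4 (log2 0.51 ± 0.09 SE, edgeR adjusted p = 0.000100) and fell 1.82-fold to day 8 (-0.86 ± 0.09 SE, edgeR adjusted p = 9.37e-07). The dip from day 0 to day 2 (-0.31 ± 0.09 SE, edgeR adjusted p = 0.00710) was lost without DMSO replicate 1 (-0.27, adjusted p = 0.0612). Its rise from day 0 to day 4 (0.20 ± 0.09 SE, edgeR adjusted p = 0.0460) was lost without any one of the 4 libraries (0.11 to 0.22) and with the replicate number as a block (0.20, adjusted p = 0.0528), and in DESeq2 (0.19, adjusted p = 0.200). The long noncoding genes Gm20544 and Gm41776 lie at the Smad7 locus.

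**Figure D2:**
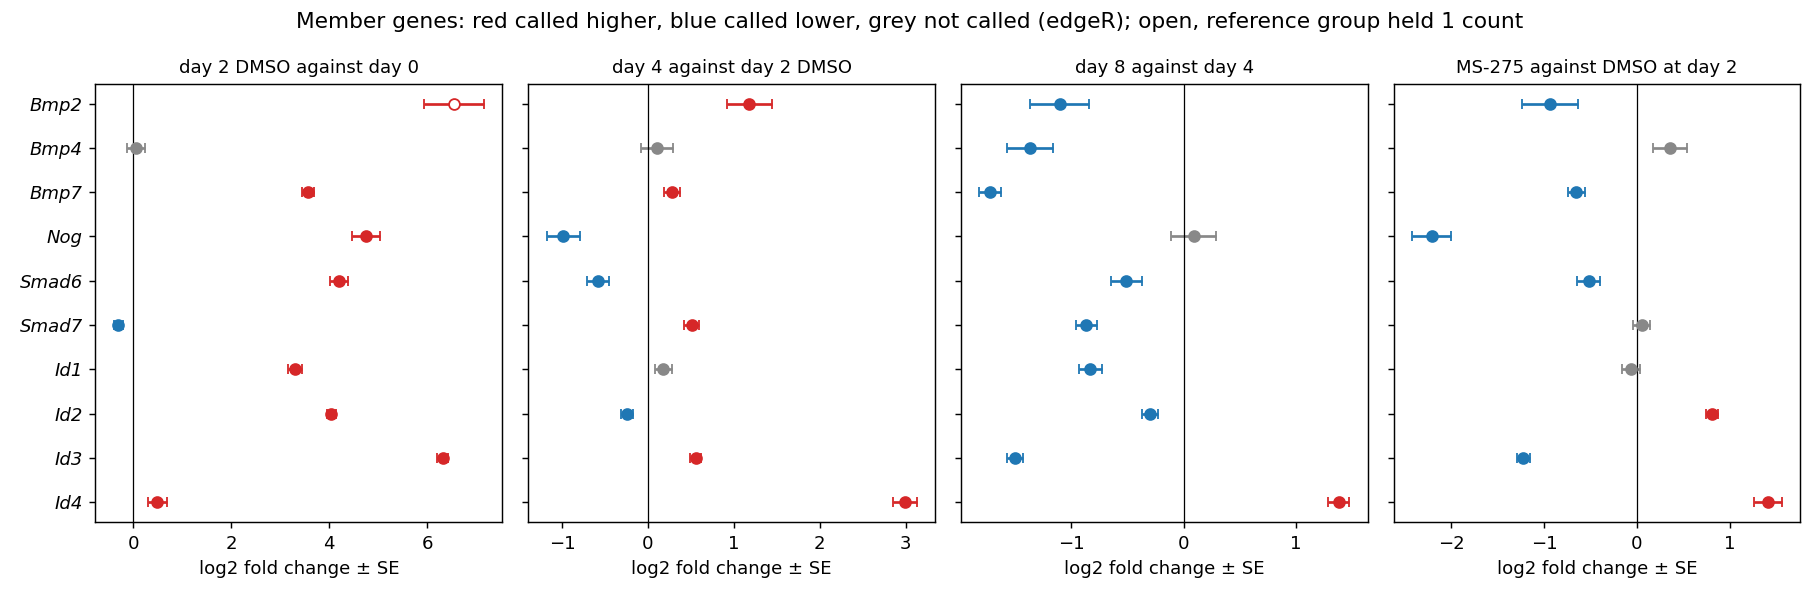
Log2 fold change of each gene (x axis, ± SE; rows are genes) in 4 comparisons from the edgeR fit over 10 libraries; red was called higher, blue lower, grey neither. The first panel lies mostly to the right, with Id3 at 6.31, the third mostly to the left with Id4 alone to the right at 1.38, and the last divides Id2 and Id4 from Id3 and Nog; the open Bmp2 point rests on 1 day 0 count.

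The start regions of 3 Id genes are shown because their RNA changes are described next and ATAC peaks, a sign of open chromatin, overlapped each of them at day 4. The RefSeq promoters used here did not include Id1, so its start was not searched. ATAC peaks also overlapped the start of Smad6, which held no match to the motifs below. The 250 bases before each RefSeq gene start (GRCm38.p6) were searched on both strands for a GC-rich element bound by Smad1 and Smad5 (GGCGCC, which reads the same on either strand), for the Smad-binding element (CAGAC, or GTCTG on the other strand) and for the joint BMP-response element (GGCGNC, 5 bases, GTCT). Capitals mark a match. The windows are chr4:136143572-136143821 on the plus strand for Id3, chr12:25096093-25096342 on the minus strand for Id2 and chr13:48260866-48261115 on the plus strand for Id4.
Id3: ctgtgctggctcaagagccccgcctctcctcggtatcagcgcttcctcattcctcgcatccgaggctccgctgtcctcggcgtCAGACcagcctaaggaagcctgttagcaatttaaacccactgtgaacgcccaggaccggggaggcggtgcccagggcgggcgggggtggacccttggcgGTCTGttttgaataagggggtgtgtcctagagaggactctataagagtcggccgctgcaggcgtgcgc
Id2: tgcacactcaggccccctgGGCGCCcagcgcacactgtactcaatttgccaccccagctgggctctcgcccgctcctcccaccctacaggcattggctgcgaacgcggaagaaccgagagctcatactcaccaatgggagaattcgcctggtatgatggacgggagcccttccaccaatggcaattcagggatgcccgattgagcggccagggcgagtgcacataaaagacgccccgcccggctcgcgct
Id4: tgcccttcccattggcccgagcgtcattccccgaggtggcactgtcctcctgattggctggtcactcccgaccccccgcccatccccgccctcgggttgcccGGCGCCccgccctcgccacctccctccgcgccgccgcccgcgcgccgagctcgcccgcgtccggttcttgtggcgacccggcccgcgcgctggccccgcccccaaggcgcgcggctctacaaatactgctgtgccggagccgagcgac
Id3 held 2 matches to the Smad-binding element, which begin 167 and 68 bases before the start, and none to the GC-rich element. Id2 held 1 GC-rich match, 231 bases before the start, and Id4 held 1, 148 bases before the start, and neither held a Smad-binding match. None of the 3 held the joint element, nor did the Smad6 and Bmp4 windows, which held no match of any kind. Of all 32851 promoters of that table, 42.2% held a Smad-binding match in the same stretch, 9.59% a GC-rich match and 0.192% the joint element. A match is a stretch of letters, not a measured binding site. At Id3 the ATAC peak of day 4 replicate 1 ran from -209 to -13 bases relative to the start and that of replicate 2 from -150 to 111, so both spanned the match at 68 bases. These were weak peaks, with fold enrichments of 3.32 and 4.90 at percentiles 0.1 and 15 of their lists, and each covered only a part of the window.

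Id3 (ENSMUSG00000007872.3, chr4:136143822-136145392) showed the steepest first step of the 4 Id genes. It read 1.37 and 2.24 CPM at day 0, 146 and 139 at day 2 with DMSO, 62.9 and 59.2 with MS-275, 211 and 208 at day 4, and 73.4 and 75.2 at day 8. All 5 groups were apart from each other. The first step was 79.4-fold (log2 6.31 ± 0.12 SE, edgeR adjusted p = 1.05e-16), the rise to day 4 was 1.47-fold (0.56 ± 0.07 SE, edgeR adjusted p = 1.73e-06), and the fall to day 8 was 2.82-fold (-1.50 ± 0.07 SE, edgeR adjusted p = 6.35e-11). With MS-275 it was 2.34-fold lower (-1.22 ± 0.07 SE, edgeR adjusted p = 3.02e-10).

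Id1 (ENSMUSG00000042745.9, chr2:152736251-152737410), the Id gene most often used as a readout of BMP signalling, read 3.62 and 2.75 CPM at day 0, 32.3 and 30.7 at day 2 with DMSO, 32.4 and 27.8 with MS-275, 35.8 and 35.6 at day 4, and 21.2 and 18.95 at day 8. The DMSO and MS-275 groups overlapped. It rose 9.84-fold by day 2 (log2 3.30 ± 0.14 SE, edgeR adjusted p = 2.08e-12) and fell 1.78-fold from day 4 to day 8 (-0.83 ± 0.10 SE, edgeR adjusted p = 4.75e-06). From day 2 with DMSO to day 4 it was not called (0.18 ± 0.10 SE, edgeR adjusted p = 0.119), but was when the 4 libraries were fitted alone (0.18, adjusted p = 0.0446). The MS-275 difference was -0.066 ± 0.10 SE (edgeR adjusted p = 0.578), and its sign turned with scaling by library totals only (0.071) and without MS-275 replicate 2 (0.037).

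Id2 (ENSMUSG00000020644.9, chr12:25093799-25096092), which in addition binds proteins of the retinoblastoma family, rose 16.5-fold by day 2, and its highest level was with MS-275. Its libraries read 5.99 and 5.55 CPM at day 0, 90.4 and 99.95 at day 2 with DMSO, 164 and 169 with MS-275, 83.3 and 77.5 at day 4, and 64.9 and 66.0 at day 8. No neighbouring groups overlapped, and both MS-275 libraries were above every other library. The first step had a log2 fold change of 4.04 ± 0.09 SE (edgeR adjusted p = 1.03e-15), and MS-275 stood 1.75-fold above DMSO (0.81 ± 0.06 SE, edgeR adjusted p = 1.63e-08). From day 4 to day 8 it fell 1.23-fold (-0.30 ± 0.07 SE, edgeR adjusted p = 0.00200). The fall from day 2 with DMSO to day 4 (-0.24 ± 0.07 SE, edgeR adjusted p = 0.00470) was lost without DMSO replicate 2 or without day 4 replicate 2 (-0.18 in both).

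Id4 (ENSMUSG00000021379.2, chr13:48261116-48266028), known in the brain for its role in progenitor proliferation and in the timing of neuron and glia formation, kept another timetable. It read 3.05 and 2.24 CPM at day 0, 3.19 and 4.32 at day 2 with DMSO, 10.4 and 9.40 with MS-275, 30.0 and 29.5 at day 4, and 74.0 and 80.5 at day 8. Each group lay above the one before it, and Id4 was the one gene of the 10 that rose from day 4 to day 8. The step from day 2 with DMSO to day 4 was 7.95-fold (log2 2.99 ± 0.13 SE, edgeR adjusted p = 7.30e-12) and that to day 8 was 2.60-fold (1.38 ± 0.10 SE, edgeR adjusted p = 6.13e-09). With MS-275 it was 2.65-fold higher than with DMSO (1.41 ± 0.15 SE, edgeR adjusted p = 5.87e-07). The first step, 1.41-fold (0.49 ± 0.20 SE, edgeR adjusted p = 0.0393), was lost without day 0 replicate 2 (0.29), without DMSO replicate 2 (0.27), with DESeq2's size factors (0.45, adjusted p = 0.0578), in DESeq2 (0.45, adjusted p = 0.0740) and with 4 libraries alone (0.49, adjusted p = 0.105). Reads of Id4 and the noncoding gene A330033J07Rik at its locus may be shared, for the reason given for Bmp7, and this too was not checked.

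With MS-275 the 4 Id genes differed in direction: Id2 and Id4 were called higher, Id3 lower, and Id1 neither. The genes called lower with MS-275 also included Bmp2, Bmp7, Smad6 and Nog, each of which had risen in the first 2 days. MS-275 cells lay nearer to day 0 than DMSO cells did for these 5, and yet Id3 at 59.2 CPM or more and Bmp7 at 29.7 or more remained far above their day 0 libraries, of 2.24 and 4.20 CPM at most. The MS-275 and day 2 comparisons share the DMSO libraries, so their values are set side by side and not correlated. The fibroblast and mesenchyme genes were also high with MS-275, as given above, with 5 of the 6 called higher and 1 lower. The 5 tested pluripotency genes were all called higher with MS-275 as well, Pou5f1 2.03-fold (edgeR adjusted p = 1.24e-09) and Utf1 21.6-fold (edgeR adjusted p = 6.50e-10). The part of either list in these changes was not tested.

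Over the 10 libraries, log2 CPM (with 0.5 added) of Id1 ran most closely with that of Smad6 (Pearson r = 0.973) and Id3 (0.970), and that of Bmp4 ran against Id4 (-0.632). These are descriptions over 5 groups of 2 libraries, not over 10 independent points. Outside the 10, the gene most like Id3 was Ddx19a, an RNA helicase gene (0.997). The correlation reads the shape of a pattern and not its size. Ddx19a averaged 95.7 CPM at day 0 and 192 at day 4, where Id3 averaged 1.80 and 210. For Bmp2 the most similar gene was Wnt3, a signalling ligand (0.994). Wnt3 averaged 0.271 CPM in day 0 libraries, 18.1 in DMSO, 7.69 in MS-275, 58.7 in day 4 and 21.2 in day 8 libraries. For Nog it was Prdm16, a zinc-finger regulator (0.987), with mean levels of 1.84, 61.0, 8.53, 19.6 and 24.4 CPM in the same order of groups. Tmod2, an actin-capping gene of neurons, was most like Id4 (0.997) and went from 45.3 CPM at day 0 to 264 at day 8. Flrt3 was most like Id2 (0.996), and it too was highest with MS-275, at 93.4 CPM against 52.8 with DMSO.

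The rest of the pathway was read from lists of genes. Over all genes tested, 32.4% were called higher and 32.2% lower at day 2 with DMSO. From there to day 4 the share was 30.6% in either direction. From day 4 to day 8 it was 21.7% higher and 19.8% lower, and with MS-275 31.9% and 31.4%. With so many genes called, the number of calls in a list says little alone. Of 11 other BMP targets, 10 rose by day 2 with DMSO and 0 fell (median log2 3.58). Msx1, a homeobox gene of the dorsal neural tube, read 0.158 and 0.560 CPM at day 0 and 278 and 277 at day 2 with DMSO, where it was called higher (log2 9.59 ± 0.16 SE, edgeR adjusted p = 4.12e-17; 8.94 and 10.72 without one or the other day 0 library). Its MS-275 libraries read 52.5 and 49.3 CPM, 5.45-fold lower than DMSO (edgeR adjusted p = 6.53e-13). From day 4 to day 8, 7 of the 11 fell and 0 rose, with Msx1 the largest at 9.63-fold. With MS-275, 3 rose and 5 fell, and the 5 became 3 without MS-275 replicate 2 or with scaling by library totals only. Dlx3, a homeobox gene of surface ectoderm, was the largest rise, from 5.49 and 4.38 CPM with DMSO to 44.2 and 41.6 with MS-275 (8.66-fold, edgeR adjusted p = 2.13e-11).

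The receptors and co-receptors (11 of 12 found, Hjv being the one not matched) moved less. By day 2 with DMSO 8 of 11 rose and 3 fell, with a median of 0.86, and Rgma, a co-receptor, rose 7.72-fold (edgeR adjusted p = 2.90e-13). Acvrl1, a type I receptor known from endothelium, had 29 and 60 counts at day 0 and 0 in both DMSO libraries, which is at least 29.5-fold lower when the DMSO pair is set at a floor of 3 counts. With MS-275, 7 of the 11 fell and 2 rose (median -0.54), and Acvr2b, a type II receptor, was 2.45-fold lower (edgeR adjusted p = 1.55e-10). Acvrl1 was among those that rose. Its MS-275 pair held 87 counts, 2.16 CPM in the mean, which is at least 26.4-fold above DMSO with the same floor. Of 11 Smads and intracellular regulators, 7 fell with MS-275 and 1 rose, beside 31.4% and 31.9% of all genes. The 7 became 5 with DESeq2's size factors and in DESeq2, and 6 with 4 libraries alone. Only 4 fell and 2 rose with scaling by library totals only. Zfp423, a zinc-finger cofactor of the BMP Smads, read 110 and 109 CPM with DMSO and 32.0 and 32.7 with MS-275, 3.38-fold lower (edgeR adjusted p = 7.87e-12), near its day 0 libraries of 30.5 and 32.6.

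Among 9 other ligands tested, Bmp10 and Gdf2 being too low, 2 rose and 4 fell by day 2 with DMSO. The shares over all genes were 32.4% and 32.2%. Gdf3, a ligand of pluripotent cells, went from 85.3 and 91.8 CPM to 7.69 and 6.76 (12.2-fold lower, edgeR adjusted p = 7.02e-14), and Bmp6 from 2.10 and 2.52 to 12.3 and 10.3 (4.90-fold higher, edgeR adjusted p = 1.16e-08). Of 18 secreted antagonists and modulators tested, Cer1 being too low, 12 rose and 1 fell from day 2 with DMSO to day 4 (median 1.18), which is the step in which Nog fell. With MS-275 10 of the 18 rose and 2 fell, where Nog again fell. Fst, the gene of follistatin, which binds activins and some BMPs, rose 23.7-fold from day 4 (1.101 and 0.944 CPM) to day 8 (21.9 and 26.9 CPM; edgeR adjusted p = 3.59e-10).

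The last list held 12 bHLH factors that Id proteins bind or oppose. Of these, 8 rose and 1, Olig2, fell by day 2 with DMSO, beside 32.4% and 32.2% of all genes, and the Olig2 call (log2 -2.72, edgeR adjusted p = 0.0370) was lost in DESeq2, with 4 libraries alone, and without either day 0 library or DMSO replicate 2. Later, 10 rose and 1 fell from there to day 4 (median 1.36), and 2 rose and 7 fell to day 8. Neurog1, a proneural factor, had 0 counts at day 0, 17.1 and 16.8 CPM at day 2 with DMSO and 115 and 96.3 at day 4. With the day 0 pair set at 3 counts, the first step was at least 208-fold. With MS-275, 8 of the 12 fell and 3 rose, and Neurog1 read 1.09 and 1.79 CPM, 11.7-fold lower than with DMSO (edgeR adjusted p = 5.25e-10). Olig1, a factor of the oligodendrocyte lineage, had the largest rise among those that averaged at least 1 CPM, 19.5-fold (edgeR adjusted p = 2.70e-07), from 0.247 to 4.91 CPM in the mean.

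**Figure D3:**
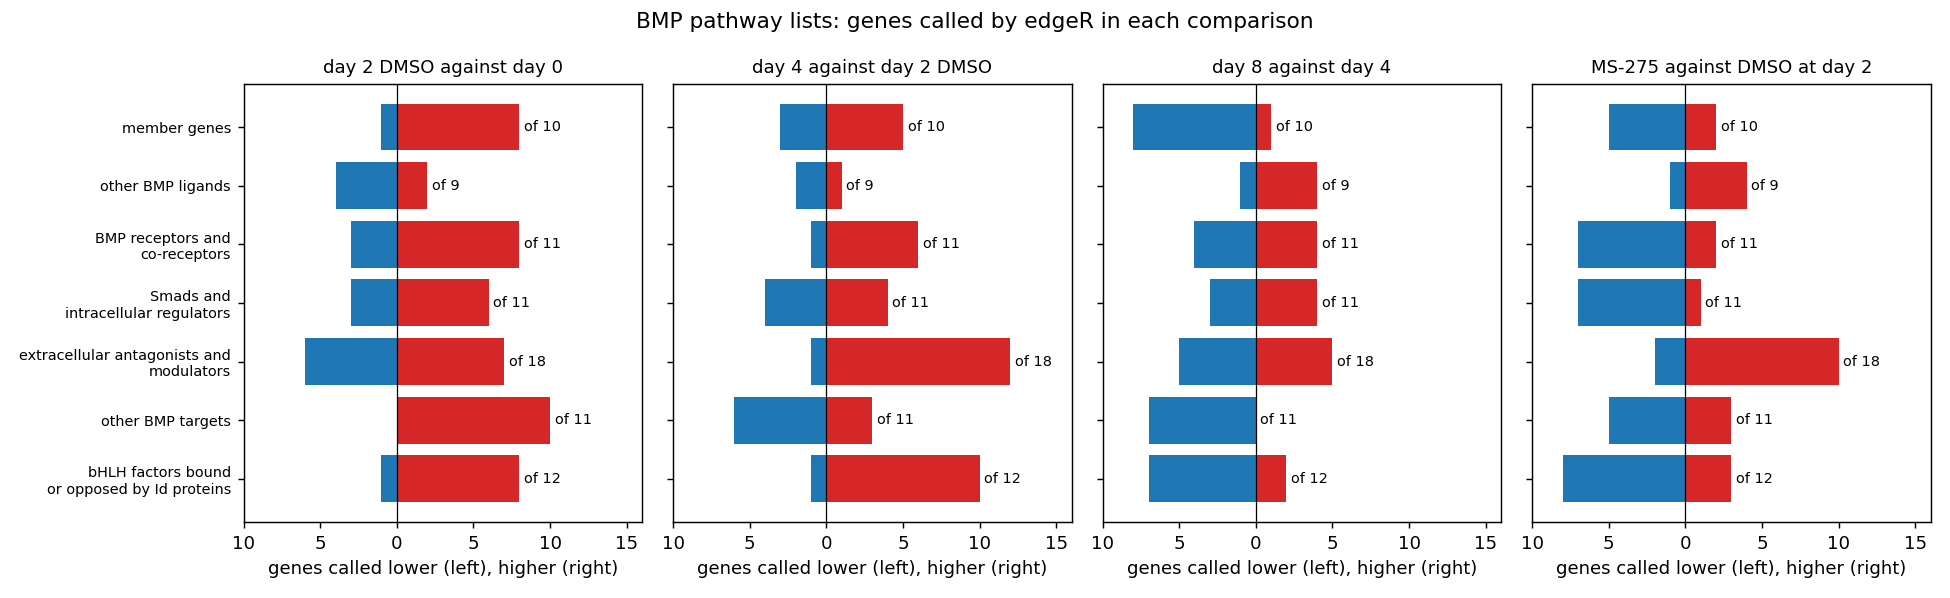
Number of genes called higher (red, right) and lower (blue, left) in each BMP list (rows, with the number tested) in 4 comparisons. The other targets hold 10 of 11 called higher at day 2 with DMSO and 7 of 11 called lower at day 8, and with MS-275 the receptors and the Smads each hold 7 of 11 called lower while 10 of 18 antagonists are called higher. Over all genes, 32.4% were called higher at day 2 with DMSO and 19.8% lower at day 8. With MS-275, 31.9% were called higher and 31.4% lower. The 7 Smads and regulators called lower with MS-275 became 5 in DESeq2.

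Peaks were then read at the same 10 genes. H3K9ac and H3K9cr are acetyl and crotonyl groups on lysine 9 of histone H3, H3K18la is a lactyl group on lysine 18, and ATAC-seq marks open chromatin. The first 3 are found at active promoters. Each library had its own peak list, with 1 library per mark and condition at day 2 and 2 at day 4, so no test between conditions was made and the depth behind the peaks is unknown. A gene was counted where a peak touched the 1 kb on either side of either RefSeq gene end. All 10 genes had an H3K9cr peak in each of the 4 lists, where 59.2% of protein-coding genes did at day 2 with DMSO, 65.9% with MS-275 and 60.4% in both day 4 lists. H3K9ac was found at 9 with DMSO (59.4% of protein-coding genes), and at 10 with MS-275 (66.9%) and in the day 4 lists (62.0% and 61.9%). Protein-coding genes that pass the RNA filter have such peaks more often, for H3K9ac 84.1% of them with DMSO, 90.7% with MS-275, and 86.9% and 86.8% at day 4, and for H3K9cr 84.0%, 89.9%, 85.3% and 85.3%. The counts over the 10 genes stand close to these shares.

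H3K18la was at 8 of the 10 with DMSO (51.9% of protein-coding genes), at 7 with MS-275 (22.2%) and at 9 in both day 4 lists (53.8% and 54.3%). Among genes that pass the RNA filter those shares were 73.1%, 30.8%, 75.3% and 76.2%. Bmp2 lacked it in both day 2 lists, Id4 with MS-275 only, and Bmp4 in all 4 lists by this window. ATAC peaks at day 4 lay at 9 genes in replicate 1 (52.4%) and at 8 in replicate 2 (50.2%), beside 74.3% and 71.5% of genes that pass the RNA filter. Bmp4 had none in the window, and Nog had one in replicate 1 only, with a fold enrichment over local background, the authors' value, of 6.16.

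**Figure D4:**
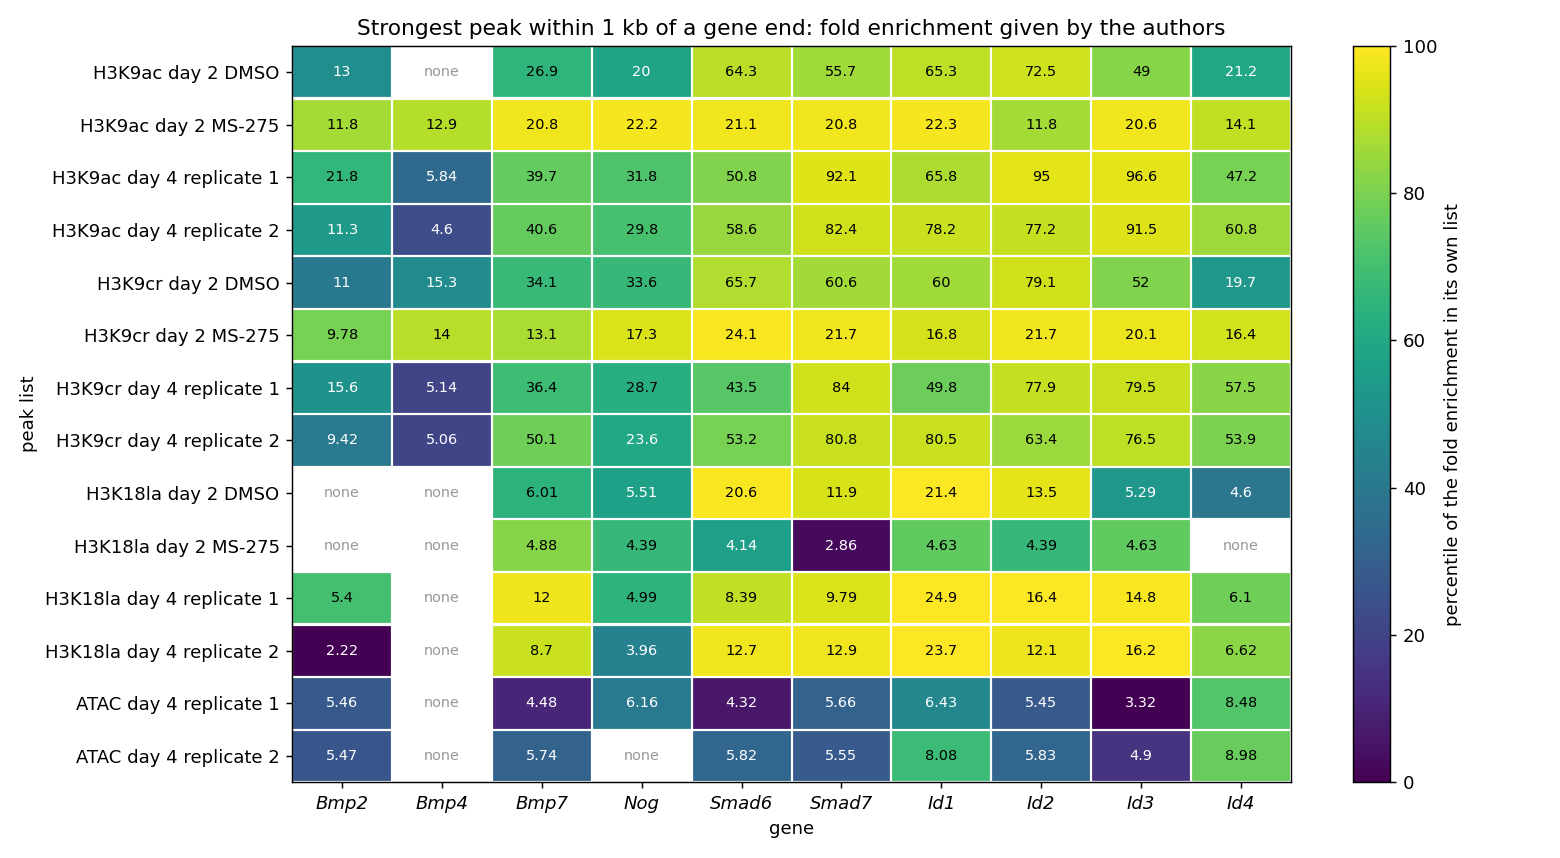
Fold enrichment, as the authors' caller gave it, of the strongest peak within 1 kb of an end of each gene (columns) in the 14 peak lists (rows); colour is the percentile of that value among the peaks of its own list. Smad6, Smad7, Id1, Id2 and Id3 hold the highest H3K9ac and H3K9cr values with DMSO, while Bmp2, Bmp4, Nog and Id4 stand lower; each row is read within its own list only.

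The absence at Bmp4 comes from where its peaks sit. With DMSO its H3K9ac peak ran from 1476 to 5142 bases past the gene start, inside the gene and outside the 1 kb window, with a fold enrichment of 12.7. At day 4 the same broad peak ran from 1519 to 5307 bases in replicate 1 and from 1300 to 5162 in replicate 2, and a second, small peak of 628 and 609 bases lay across the start, with fold enrichments of 5.84 and 4.598. The ATAC peaks of day 4 were also inside the gene, from 2969 to 3496 and from 3188 to 3438 bases past the start. With MS-275 a single H3K9ac peak of 7635 bases took in both the start and the inner stretch. H3K18la peaks lay inside the gene in all 4 lists, the strongest at day 4 replicate 1 with a fold enrichment of 5.40.

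Id1, Id2 and Id3, which are short genes, were each covered from end to end by 1 H3K9ac peak in all 4 lists, as 0.763% of protein-coding genes were with DMSO, 2.14% with MS-275, and 1.07% and 1.11% at day 4. Gene length enters this share, and Id1 is 1160 bases long. Nog, at 1922 bases, was covered in 3 of the 4 lists. One H3K9cr peak covered Id1 and Id3 in all 4 lists and Id2 in all but the MS-275 list, against 0.694% of protein-coding genes with DMSO, 1.93% with MS-275, and 0.813% and 0.950% at day 4. H3K18la covered Id1 and Id3 in the day 4 lists only (0.379% and 0.402% of protein-coding genes). At Id1 this rests on a few bases: with DMSO the peak ended at base 152737402, just short of the gene end at 152737410. At Id3 the H3K9ac peak was 4319 bases wide with DMSO, 10313 with MS-275, and 9055 and 9070 at day 4. Its fold enrichments were 49.0, 20.6, 96.6 and 91.5 in that order. In their own lists these values stood at percentiles 81.9, 97.7, 95.9 and 94.9. The widest of these peaks was that with MS-275, where Id3 RNA was lower than with DMSO. The DMSO and MS-275 lists differ as a whole, as given below, and no change in width or enrichment was tested. H3K18la at Id3 was 2 separate peaks with DMSO, the stronger 1063 bases wide with a fold enrichment of 5.29, and 1 peak of 10272 and 7865 bases at day 4, with values of 14.8 and 16.2. The day 4 Id3 peaks stood at percentiles 98.9 and 99.3 of their own H3K18la lists.

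In 3 lists Id1 had the strongest H3K18la peak of the 10 genes, with fold enrichments of 21.4 with DMSO and of 24.9 and 23.7 at day 4, at percentiles 99.3, 99.9 and 99.9 of their lists. With MS-275 the value was 4.63, at percentile 75.5 of a list whose median was 4.07. Smad6 came next with DMSO, at 20.6 (percentile 99.2), and read 8.39 and 12.7 at day 4. Id2 held a single H3K9ac peak of 9169 bases with DMSO, 6598 with MS-275, and 9395 and 9345 at day 4, and its RNA was highest with MS-275.

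Id4 had the lowest H3K9ac, H3K9cr and H3K18la values of the 4 Id genes at day 2 with DMSO. Its strongest H3K9ac peak with DMSO was 2018 bases wide, with a fold enrichment of 21.2 at percentile 59.4. At day 4 the values were 47.2 and 60.8, at percentiles 79.6 and 85.4. H3K18la at Id4 was 264 bases wide with DMSO, not called with MS-275, and 2134 and 1719 bases wide at day 4. These lists differ in length, with 36382 H3K18la peaks with DMSO and 54865 and 51057 at day 4, and no change in width or rank was tested.

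**Figure D5:**
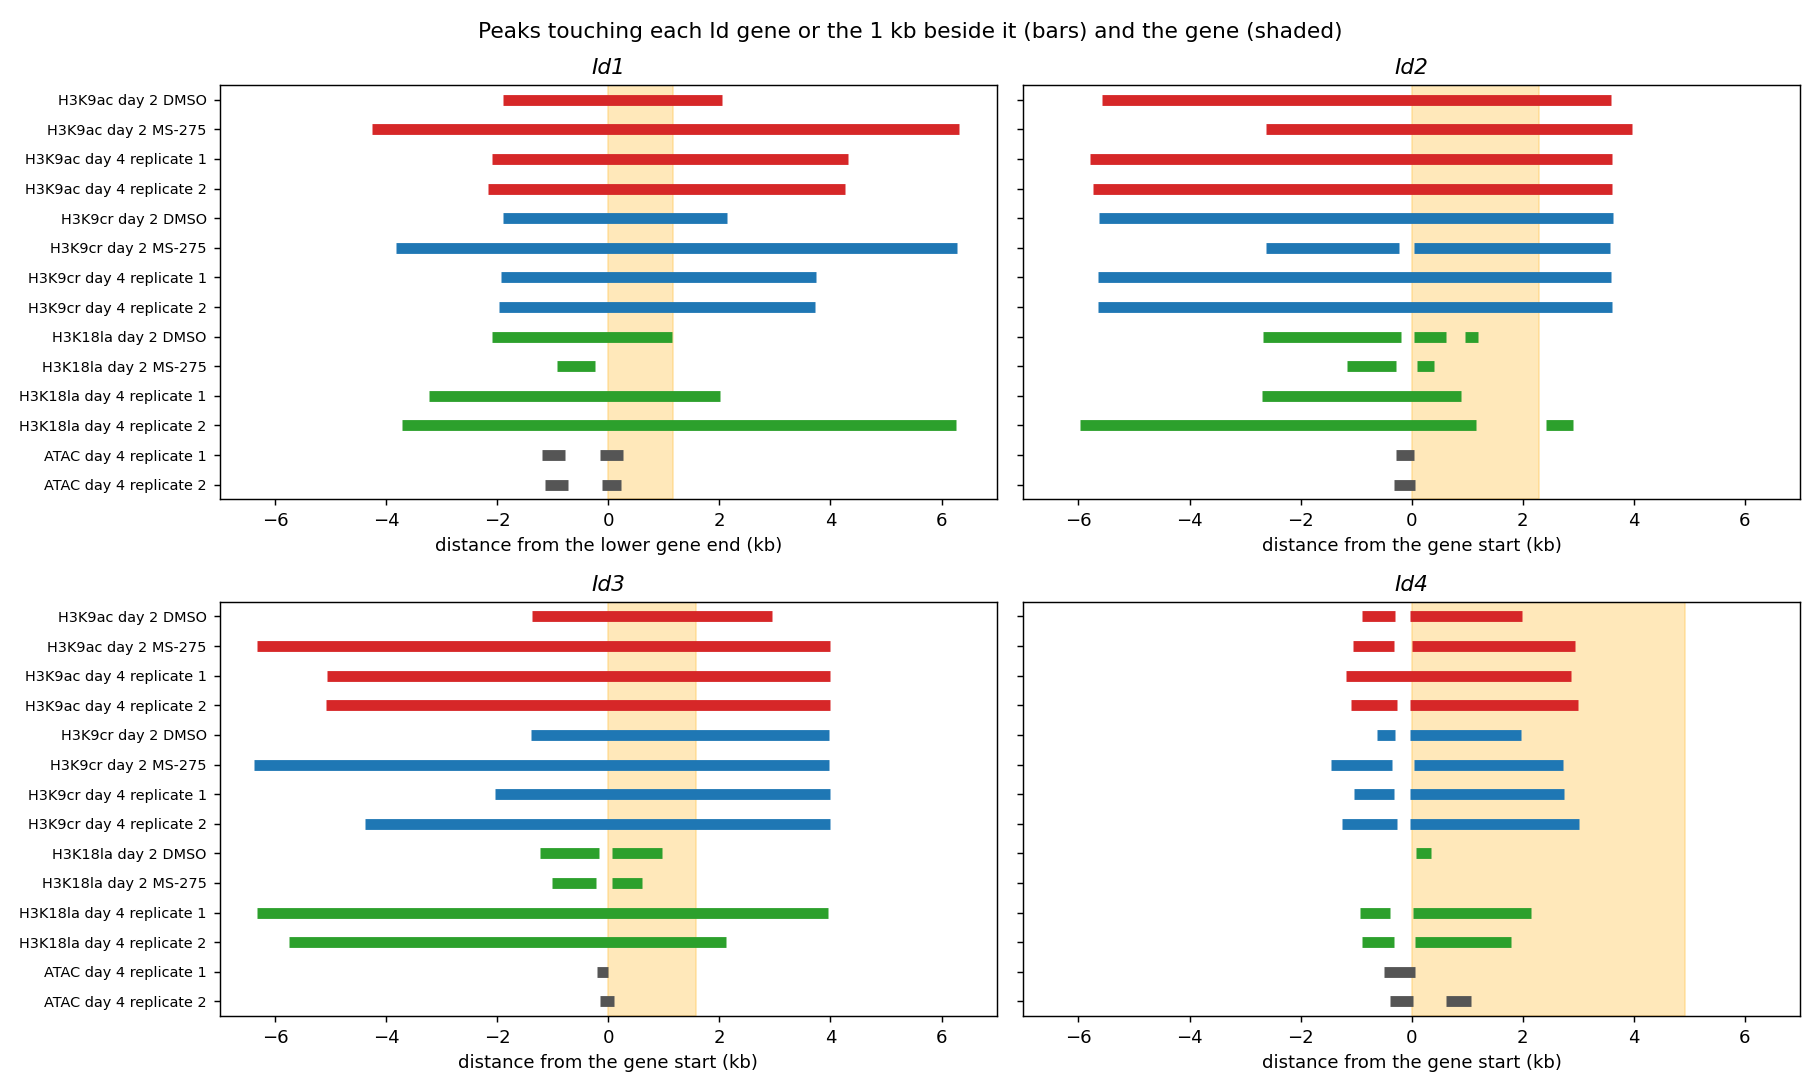
Peaks (bars) at Id1, Id2, Id3 and Id4 by distance in kb (x axis) from the gene start, or from the lower-coordinate end for Id1, in each of the 14 lists (rows); shading is the gene. H3K18la (green) at Id3 is 2 short peaks in both day 2 lists and 1 wide peak in both day 4 lists, and at Id4 it is absent with MS-275.

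Bmp7 carried a wide peak at its upper-coordinate end: for H3K9ac 7386 bases with DMSO, 11548 with MS-275, and 7883 and 7701 at day 4, and for H3K18la 7265 and 8095 bases at day 4. At Bmp2 the strongest H3K9ac peak was 1803 bases wide with DMSO (fold enrichment 13.0), and 1415 and 1313 bases at day 4 (21.8 and 11.3). The day 4 replicates were thus far apart in fold enrichment, but close in width and in height (pileup signal 97 and 95). Smad7 had H3K9ac over 32.9% of the gene and its 1 kb flanks with DMSO, 97.7% with MS-275, and 60.9% and 62.6% at day 4, while its RNA overlapped between DMSO and MS-275. The MS-275 H3K9ac list held 84418 peaks with a median fold enrichment of 4.73, against 26555 and 13.8 with DMSO, so the 2 lists differ as a whole, and no change in peak width at these genes was tested.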

How the data were processed

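The authors deposited estimated counts per gene; the submitters' processing notes list Salmon 1.1.0. The annotation, the strand setting and the step from transcripts to genes are not given in the sources used here. These notes also name DESeq2 1.26.0, whose results were not used. Of 55385 identifiers, 55144 were matched to a symbol. Counts were rounded and fitted in edgeR 4.0.16 (R 4.3.3): TMM scaling, filterByExpr (17789 genes kept, all 10 members among them), 1 quasi-likelihood fit over the 10 RNA libraries, and Benjamini-Hochberg adjustment over all genes tested, with a call at an adjusted p under 0.05. CPM are counts scaled to the TMM-adjusted library size. The fit was tested on simulated data first. The series describes its replicates as biological; p-values measure the spread between these libraries, and counting intervals cover counting error only. Replicate numbers are shared between groups, but no label says that a number marks a common culture, so the main fit has no block.

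Per the file headers, the deposited peak lists give each peak a position, a pileup signal, a fold enrichment, which is a ratio, and its p-value and q-value, both as −log10. MACS2 2.2.7.1, Bowtie2 2.4.1 and the build GRCm38 are listed in the notes. Across lists, the smallest −log10 q-value was 2.00 to 2.02; caller settings and controls are not given in the sources used here, and the 4 input libraries were not analysed here. Coordinates of genes and the promoter sequences are RefSeq's (GRCm38.p6); 5 of the 10 members had a promoter in that table.

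The members, gene lists, motifs and tests were chosen with earlier results of these data known. Named were all 10 members, from each list and comparison at most the most raised and the most lowered called gene averaging 1 CPM or more, and the 3 genes most like a member in log2 CPM that averaged 5 CPM or more. Not all genes that rule takes are printed. Alternatives were DESeq2 1.42.0 and its size factors, no count filter, a replicate block, only the 4 libraries compared, each library left out, wider or stricter peak windows, and library totals only, the last chosen after seeing the data.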

Additional observations from a re-analysis of the deposited data

How the results depend on the processing

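The number of the 10 genes called stayed within 1.5 times its value under every alternative run. With each library left out in turn it was 8 to 9 (day 2 with DMSO against day 0), 6 to 8 (day 4 against day 2), 8 (day 4 against day 0), 9 (day 8 against day 4) and 6 to 7 (MS-275). With the replicate block the numbers were 9, 8, 8, 9 and 7, and the block ended 1 call, Smad7 at day 4 against day 0. Deviations of same-numbered libraries correlated at -0.0467, -0.148, -0.0616, 0.00569 and 0.181 over 11861 genes in those comparisons. With 2 libraries per group these values cannot settle whether a shared number marks a common culture. Of single-gene values with a library left out, 183 kept their direction and call, 13 lost the call and 4 turned sign. Those 4 were not called: Bmp4 at day 4 without day 4 replicate 2 (-0.12 against either day 2 or day 0; 0.33 against both without replicate 1), Nog at day 8 against day 4 without day 8 replicate 1 (-0.15; 0.28 without day 8 replicate 2), and Id1 with MS-275 without MS-275 replicate 2 (0.037; -0.18 without replicate 1). In the other settings 289 kept both, 7 lost the call, 3 gained one and 1 turned sign, Id1 with MS-275 (0.071 with library totals only). The fitted log2 fold change of Bmp2 at day 2 against day 0 ranged from 5.65 to 8.91 without 1 library, since day 0 held 1 count. For MS-275, scaling by library totals moved the median log2 fold change of all genes from 0.01 to 0.14 and the share of calls that were higher from 50.4% to 61.2%. In the lists, the 4 receptors called lower at day 8 became 2 in DESeq2 and without day 4 replicate 1, day 4 replicate 2 or day 8 replicate 1, and the 5 antagonists called higher there became 3 in DESeq2, with 4 libraries alone and without day 4 replicate 2 or day 8 replicate 2. From day 2 to day 4, without day 4 replicate 1, the 4 Smads and regulators called lower became 2 and the 3 targets called higher became 5. Counts of 1 also moved, to 0 or 2, among ligands, Smads and bHLH factors. The number of the 10 genes with a peak was 9 to 10 in a list with a 5 kb window or over the whole gene, 6 to 10 with the summit in the window and 5 to 10 at a −log10 q of at least 5. With 2 libraries per group, and peak lists without depth, small differences such as those of Bmp4 at day 2 were not resolvable.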
